A study of Mus musculus with 9 samples.

Results

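Cytosolic ribosomal protein genes were followed through the hearts of control, diabetic and spermine-treated diabetic mice. The genes were taken as the rows of the deposited count matrix whose mouse symbol begins with Rpl or Rps, without the kinases named Rps6k, symbols that contain -ps or -rs, and Rps19bp1. Of 22851 rows, 190 began with these letters, 111 were left out (101 of them rows named as pseudogenes) and 79 remained. Of the 79 genes, 39 belong to the core of the large (60S) subunit, 3 to its P stalk, 30 to the core of the small (40S) subunit and 4 to a list of paralogs, and 3 more, Rpl37rt, Rpl6l and Rps3a2, are near copies of other members. The core lists name 77 genes, of which 72 have a row, and Rpl13, Rpl24, Rpl35, Rpl35a and Rps10 were not analysed here. Among the paralogs, Rpl7l1, Rpl10l, Rpl36al and Rps4l were not analysed here either.

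Myocardial RNA came from 9 libraries, 3 in each group. CK mice were male C57BL/6 mice (C57BL/6J in the study's methods), 6 to 8 weeks old at the start, that received only citrate buffer. DCM mice were of the same strain, sex and age and were made diabetic by a single injection of streptozotocin at 180 mg/kg, which destroys the insulin-producing beta cells of the pancreas, and were kept for 12 weeks. SPM mice received streptozotocin in the same way and in addition spermine, a small polyamine, at 1 mg/kg, daily over the 2 weeks that preceded streptozotocin and on alternate days during the 12 weeks that followed. No group received spermine without streptozotocin. The sources give either a single mouse or a pool of hearts for a library, so p-values measure the spread between these libraries, which may hold less than the spread between animals.

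The cytosolic ribosome makes all proteins encoded in the nucleus. Its small subunit reads the mRNA and its large subunit joins the amino acids, while the P stalk recruits the translation factors that drive each step. Cells make ribosomal proteins in near-equal numbers, and their mRNAs share a start of a cytosine followed by pyrimidines, the terminal oligopyrimidine (TOP) tract, through which the growth-controlling kinase complex mTORC1 and the RNA-binding protein Larp1 set their translation and stability. Rpl3l is a paralog of Rpl3 that is found in heart and skeletal muscle and can take the place of Rpl3, a protein close to the site of peptide bond formation. The questions asked here were whether the set as a whole, and the Rpl3 and Rpl3l pair in particular, differed between diabetic and control hearts and between hearts with and without spermine.

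The start of these genes is shown by 4 members that carry the results below, 3 canonical genes that were higher in SPM than in CK, chosen because a tract was found at their start, and the paralog Rpl3l, with 15 bases before and 15 bases from the RefSeq start on GRCm38.p6, 5′ to 3′ on the strand of the gene. Capitals mark a C followed by at least 4 bases that are C or T, where the C lies within 5 bases of the RefSeq start.
Rpl12 (chr2:32961697-32961726, plus strand): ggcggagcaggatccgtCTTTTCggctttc
Rps24 (chr14:24490663-24490692, plus strand): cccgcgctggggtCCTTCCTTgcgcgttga
Rps27 (chr3:90213634-90213663, minus strand): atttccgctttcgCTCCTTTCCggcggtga
Rpl3l (chr17:24727811-24727840, plus strand): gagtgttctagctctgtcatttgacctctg
Of the 13 canonical genes that rose in SPM compared to CK, 11 have a RefSeq start, and the 3 shown are those with a tract. The other 8 had none, nor had another start of Rps24 or either start of Rpl3l, so a match by this rule was not shared by the genes that rose. Whether their mRNAs share a TOP tract in the heart was not tested. Among the 57 members with a RefSeq start, 26 (45.6%) had a tract at 1 or more of their starts, beside 21.2% of all 27025 genes with one, searched on the strand of the gene only. This is a match of letters at annotated starts, which can lie some bases from the start used in the heart.

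Total counts on genes lay between 29901300 and 39718680 per library. SPM replicate 2 stood apart from the others, in that it was the middle library of its group for 66.3% of the genes. The other libraries were the middle one for 15.6% to 38.7% of the genes. Of the 78 ribosomal protein genes tested, SPM replicate 2 was the middle one for 74, CK replicate 2 for 54 and DCM replicate 2 for 56. Of 2656 genes without a count in SPM replicates 1 and 3, 30 (1.13%) had one in SPM replicate 2, while the same share was 15.6% to 35.0% for the other libraries, so its independence is in doubt and values without it are given below. The share of counts on mitochondrial genes was lowest in CK (13.7% to 16.2%) and highest in SPM (21.0% to 21.1%), with DCM from 15.5% to 18.9%. Against the tissue label heart, the extraction protocol names retinas. All 10 cardiomyocyte markers with a row exceeded 1 CPM in every library and reached 53104 to 69603 CPM in sum, whereas the 4 retina markers with a row summed to at most 1.44 CPM.

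Ribosomal protein genes were among the abundant transcripts of these hearts. By FPKM, which is per length, 60 of the 79 had a mean over 100 and the median gene had 241. The 5 highest were Rplp1 with a mean of 1413, Rps2 with 1357, Rplp0 with 1216, Rps15 with 1103 and Rps14 with 829 FPKM over the 9 libraries. Rplp0 forms the base of the P stalk, Rplp1 is 1 of the acidic proteins that it carries, and Rps2, Rps15 and Rps14 are proteins of the small subunit. Toward the other end stood Rpl39l with 0.129, Rpl22l1 with 2.68, Rpl6l with 2.89, Rpl13a with 4.55 and Rps3a2 with 5.58 FPKM. Rpl39l, Rpl22l1, Rpl6l and Rps3a2 are paralogs or near copies, but Rpl13a encodes a canonical protein, and its counts of 129 to 202 per library stood far under those of most core members. The exons of Rpl13a overlap other annotated genes over 35.4% of their length, and how reads in shared exons were counted is not given in the sources used here.

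Rpl3 rose and Rpl3l fell between CK and SPM hearts. On the scale of CPM after TMM normalisation (counts scaled to equal library size and composition), Rpl3 had 353, 314 and 309 CPM in CK replicates 1 to 3, 454, 411 and 382 in DCM, and 554, 464 and 388 in SPM. Every DCM and SPM library was above every CK library, while DCM and SPM overlapped. Rpl3l had 295, 305 and 310 CPM in CK, 278, 299 and 252 in DCM, and 219, 221 and 214 in SPM. All SPM libraries were below all others, and DCM overlapped CK in 1 library.

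In DCM compared to CK, Rpl3 was upregulated by 0.35 ± 0.09 on the log2 scale (SE, n = 3 per group; adjusted p = 0.0203 in edgeR's quasi-likelihood test), and Rpl3l changed by -0.13 ± 0.08 (adjusted p = 0.323). Compared to CK, SPM hearts had Rpl3 upregulated by 0.52 ± 0.12 (adjusted p = 0.0131) and Rpl3l was downregulated, with a log2 fold change of -0.48 ± 0.05 (adjusted p = 0.00105). Rpl3l was also downregulated in SPM compared to DCM, with -0.34 ± 0.08 (adjusted p = 0.0190), and Rpl3 had 0.17 ± 0.12 (adjusted p = 0.330). All of these changes were under 1.5-fold, the fold limit of the study. Without SPM replicate 2, edgeR's adjusted p was 0.00933 for Rpl3l and 0.0440 for Rpl3 in SPM compared to CK, and 0.0902 for Rpl3l in SPM compared to DCM.

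Because both genes are read in the same library, their ratio does not depend on how libraries are scaled. The ratio of Rpl3l FPKM to Rpl3 FPKM was 1.14, 1.32 and 1.37 in CK replicates 1 to 3, 0.837, 0.993 and 0.900 in DCM, and 0.539, 0.650 and 0.754 in SPM. The 3 groups did not overlap, and the share of the pair that was Rpl3l was 56.0% ± 2.4 in CK, 47.6% ± 2.1 in DCM and 39.1% ± 4.0 in SPM (SD, n = 3). On the log2 scale the ratio differed by -0.49 between DCM and CK, by -0.50 between SPM and DCM and by -0.99 between SPM and CK. Each difference had p = 0.1 in a two-sided exact permutation test, which is the smallest p that 3 against 3 libraries allow. Without SPM replicate 2 the differences from DCM and CK were -0.51 and -0.999, with p = 0.1 in the exact permutation test, the smallest that 2 against 3 libraries allow.

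**Figure D1:**
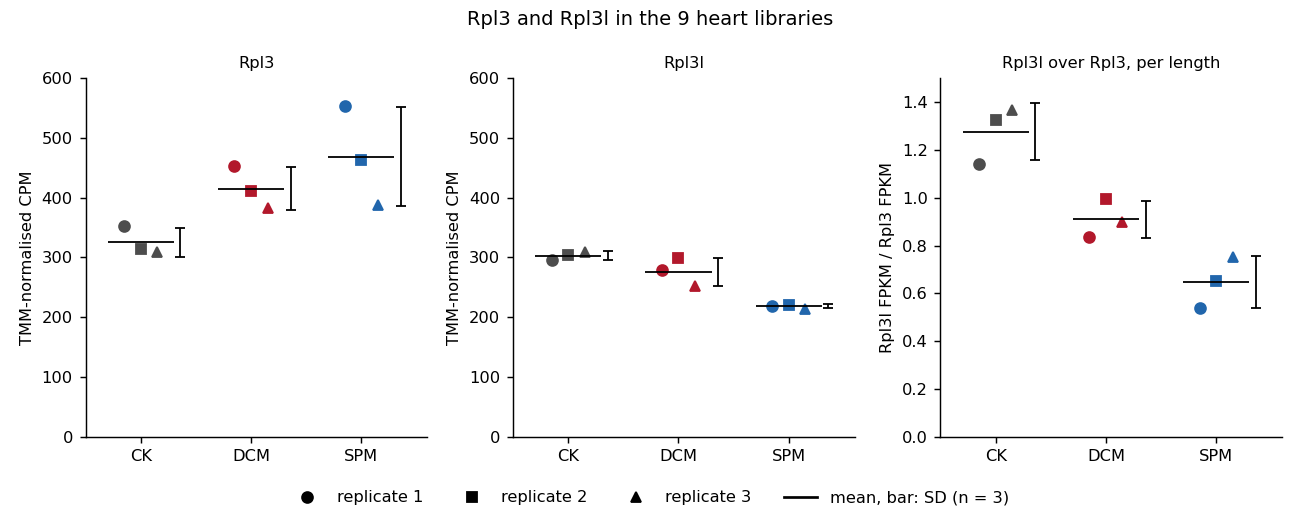
The first and second panels plot TMM-normalised CPM of Rpl3 and Rpl3l for each library by group, and the third the ratio of their FPKM values. Lines are means and bars SDs over 3 libraries. Rpl3 lay at 309 to 353 CPM in CK and at 382 to 554 in DCM and SPM, Rpl3l lay at 214 to 221 CPM in SPM and at 252 to 310 elsewhere, and the ratio separated the 3 groups.

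Rpl3l is made by cardiomyocytes, and in bulk tissue fewer cells of a type and less RNA per cell cannot be told apart. Other cardiomyocyte genes did not move as 1 group. Of 10 markers, 2 (Tcap and Tnnt2) rose and 4 (Myh6, Atp2a2, Myl3 and Tnni3) fell in SPM compared to CK at an adjusted p below 0.05. Of all genes tested, 13.0% rose and 14.3% fell, and the list median was -0.10 beside 0.00 for all genes. Myl3 alone passed in SPM compared to DCM, with -0.30 (edgeR adjusted p = 0.0479), where 8.87% of all genes rose and 7.76% fell. Without SPM replicate 2, Tcap alone rose and none fell in SPM compared to CK, where 5.26% and 5.10% of all genes did. None passed in SPM compared to DCM in that case, where 0.357% of all genes rose and 0.128% fell. The summed cardiomyocyte markers ranged from 53104 to 59642 CPM over the SPM libraries, from 59450 to 69603 over DCM and from 62692 to 69506 over CK. Summed skeletal muscle markers ranged from 12.4 to 13.6 CPM over the SPM libraries, from 14.2 to 17.9 over DCM and from 22.1 to 43.4 over CK. The part of either list in the lower Rpl3l of SPM was not tested. A row named Rpl3-ps1, a pseudogene of Rpl3, held 294 to 607 counts, 2.80% to 3.37% of those of Rpl3.

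The summed level of the set did not separate the groups. The 79 genes took 2.67%, 2.61% and 2.38% of the counts in CK replicates 1 to 3, 3.03%, 2.66% and 2.45% in DCM, and 3.04%, 2.66% and 2.34% in SPM. Wilson 95% intervals of these shares were 0.0103 to 0.0116 percentage points wide and cover counting error only. The highest and the lowest share were both found in SPM, and all groups overlapped. The mean share was 2.55% ± 0.15 in CK, 2.71% ± 0.29 in DCM and 2.68% ± 0.35 in SPM (SD, n = 3). The difference was 0.159 percentage points between DCM and CK (exact permutation p = 0.5), 0.126 between SPM and CK (p = 0.7) and -0.0331 between SPM and DCM (p = 1), where the smallest p is 0.1. Between DCM and CK it was 0.00110 without DCM replicate 1 and 0.291 without DCM replicate 3.

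Within a group, the genes followed their library. DCM replicate 1 had the highest normalised level of its group for 66 of the 78 genes tested and DCM replicate 3 the lowest for 66. SPM replicate 1 was highest for 74 and SPM replicate 3 lowest for 77, and in CK replicate 1 was highest for 53 and replicate 3 lowest for 67. Among all genes, the same libraries were highest or lowest for 31.9% to 42.3%. The median deviation of the 78 genes from their mean over 9 libraries was -0.04, -0.10 and -0.19 in CK, 0.17, 0.06 and -0.07 in DCM, and 0.24, 0.05 and -0.14 in SPM, on the log2 scale. Summed macrophage markers stood in the same order within the groups, at 1052, 994 and 798 CPM in CK, 785, 666 and 665 in DCM, and 1344, 1012 and 789 in SPM. Summed fibroblast markers separated the groups, with CK highest (2017 to 2113 CPM), SPM next (1620 to 1688) and DCM lowest (1373 to 1464). At an adjusted p below 0.05, 5 of the 7 fibroblast markers fell and none rose in DCM compared to CK, where 5.11% and 5.28% of all genes did. In SPM compared to CK 4 fell and 2 rose, where 14.3% and 13.0% did. In SPM compared to DCM none fell and 2 rose, where 7.76% and 8.87% did. Of 9 macrophage markers, 5 fell and 1 rose in DCM compared to CK. None fell in the other comparisons, where 1 rose in SPM compared to CK and 6 in SPM compared to DCM. Without SPM replicate 2 none of either list passed in SPM compared to DCM, where 0.357% of all genes rose and 0.128% fell. The part of either in the level of the ribosomal protein genes was not tested. Across the 9 libraries the median correlation between pairs of the 72 core genes was 0.78, which describes genes that share library, depth and preparation.

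**Figure D2:**
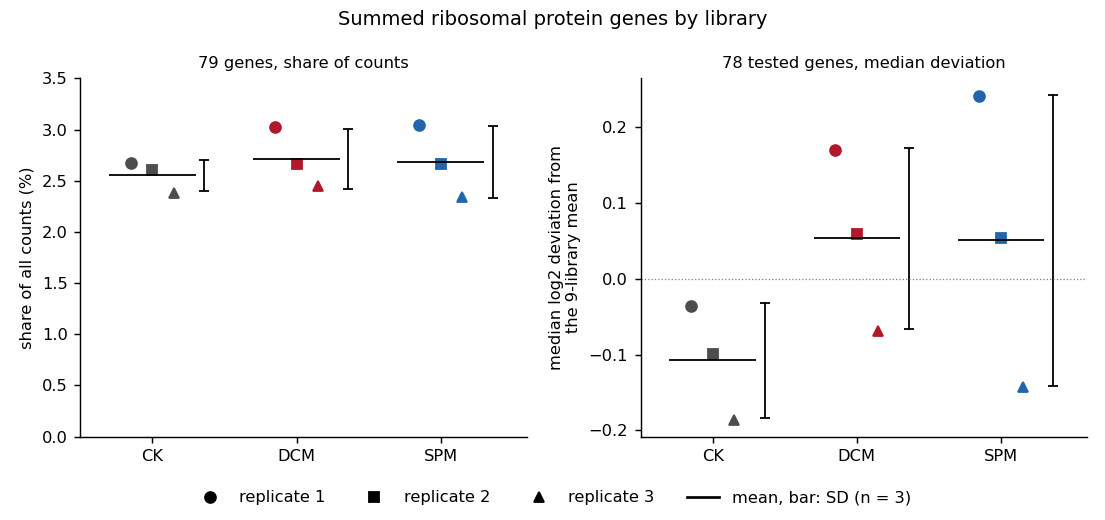
The left panel plots the share of all counts on the 79 genes per library, in percent, and the right panel the median log2 deviation of the 78 tested genes from their mean over the 9 libraries. Symbols give the replicate, lines the mean and bars the SD over 3 libraries. Shares ran from 2.34% to 3.04% with overlap of all groups, and replicate 1 was highest and replicate 3 lowest in each group.

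In DCM compared to CK, most ribosomal protein genes had a slightly higher fitted level, and few passed the test. Of 78 genes tested, 73 had a higher and 5 a lower fitted level, with a median log2 fold change of 0.15 (quartiles 0.10 and 0.21) beside 0.00 for all 14402 genes tested. The median was 0.10 without DCM replicate 1 and 0.21 without DCM replicate 3, and for most genes the libraries of DCM and CK overlapped. At an adjusted p below 0.05 without a fold limit, 3 of the 78 (Rpl3, Rpl12 and Rpl8) rose, where 5.28% of all genes did, and none fell, where 5.11% did. The same count was 12 risen and none fallen in DESeq2, where 6.51% of all genes rose and 6.04% fell. At an unadjusted p below 0.05 edgeR gave 26 higher and none lower, where 12.0% and 12.6% of all genes were. With the fold limit of 1.5 none was called, where 2.03% of all genes were called higher and 2.31% lower. All 3 DCM libraries were above all CK libraries for 21 of the 78 genes, beside 14.5% of all genes, and below them for 1, beside 14.8%.

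Rpl12, which sits at the base of the P stalk, had 322, 303 and 302 CPM in CK and 442, 378 and 355 in DCM. All DCM libraries were above all CK libraries, and the log2 fold change was 0.34 ± 0.09 (edgeR adjusted p = 0.0251). Rpl8, a protein near the site of peptide bond formation, had 690, 617 and 615 CPM in CK and 864, 814 and 710 in DCM. These groups were also apart, and the log2 fold change was 0.31 ± 0.09 (edgeR adjusted p = 0.0414). The stalk proteins Rplp0, Rplp1 and Rplp2 had 0.36, 0.22 and 0.17, of which none passed (edgeR adjusted p = 0.0629, 0.192 and 0.265). The medians were 0.14 for the 39 genes of the large subunit core, 0.22 for the 3 of the stalk and 0.17 for the 30 of the small subunit core. Leaving out CK replicate 2, CK replicate 3 or DCM replicate 1 left none of the 3 genes past the test. Leaving out DCM replicate 3 gave 7 genes, and the share of all genes in these fits is not given here.

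In SPM compared to CK, the median was again 0.15 beside 0.00 for all 14574 genes tested, but the genes were spread wider (quartiles 0.04 and 0.26). The median was 0.05 without SPM replicate 1 and 0.25 without SPM replicate 3. At an adjusted p below 0.05, 14 of 78 rose, where 13.0% of all genes did, and 2 fell, where 14.3% did. Those that rose were Rpl3, Rpl4, Rpl5, Rpl9, Rpl12, Rpl21, Rpl22 and Rpl23 of the large subunit, Rpsa, Rps3a1, Rps24, Rps25 and Rps27 of the small subunit, and the near copy Rps3a2. Rpl3l was among those that fell. With the fold limit of 1.5, 1 gene (Rps3a2) was called higher and 1 lower, where 5.08% and 4.12% of all genes were called. All SPM libraries were above all CK libraries for 18 of the 78 genes, beside 23.3% of all genes, and below them for 2, beside 23.0%.

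The number of genes past the adjusted p in SPM compared to CK depended on single libraries. Without SPM replicate 2, Rpl3 and Rps3a1 rose and Rpl3l fell, where 5.26% and 5.10% of all genes did, and without SPM replicate 3, 33 rose and 1 fell. Without CK replicate 1, 2 or 3 the genes past the test numbered 5, 3 and 3, and without SPM replicate 1 they numbered 10. Shares of all genes are not given here for fits without a CK replicate or SPM replicate 1 or 3. These counts therefore cannot be set against other genes. Among the canonical genes the largest rise after Rpl3 was that of Rps24, a small subunit protein mutated in Diamond-Blackfan anaemia, with 432, 435 and 415 CPM in CK, 503, 443 and 462 in DCM, and 712, 586 and 481 in SPM. The SPM libraries were above those of CK, and the log2 fold change was 0.47 ± 0.12 (edgeR adjusted p = 0.0225, and 0.0640 without SPM replicate 2). Rps3a1, another small subunit protein, had 576, 586 and 579 CPM in CK, 703, 672 and 650 in DCM, and 926, 795 and 685 in SPM. Both diabetic groups were above CK in every library, with 0.46 ± 0.10 in SPM compared to CK (edgeR adjusted p = 0.0102, and 0.0391 without SPM replicate 2).

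In SPM compared to DCM, the middle of the set lay close to no change. Of 78 genes tested, 36 had a higher and 42 a lower fitted level, with a median log2 fold change of -0.01 beside 0.01 for all 14493 genes tested. The median was -0.11 without SPM replicate 1 and 0.08 without SPM replicate 3. At an adjusted p below 0.05 none rose, where 8.87% of all genes did, and 1 fell, Rpl3l, where 7.76% did. With SPM replicate 2 left out none rose or fell, where 0.357% and 0.128% of all genes did. At an unadjusted p below 0.05, 8 were higher and 2 lower in edgeR, where 17.8% and 16.8% of all genes were. In DESeq2 4 rose and 2 fell at an adjusted p below 0.05, where 10.5% and 9.52% of all genes did. With the fold limit of 1.5 none was called, where 2.70% of all genes were called higher and 0.890% lower. All SPM libraries were above all DCM libraries for 2 genes (19.7% of all genes) and below them for 1 (19.5% of all genes). The largest fitted values after the near copy Rps3a2 and the paralog Rpl22l1 were those of Rps27, Rps24 and Rpl21, with 0.34, 0.34 and 0.33, and among the smallest beside Rpl3l were those of Rplp2, Rpl36 and Rps2, with -0.25, -0.22 and -0.21. Of these, none but Rpl3l passed the test.

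**Figure D3:**
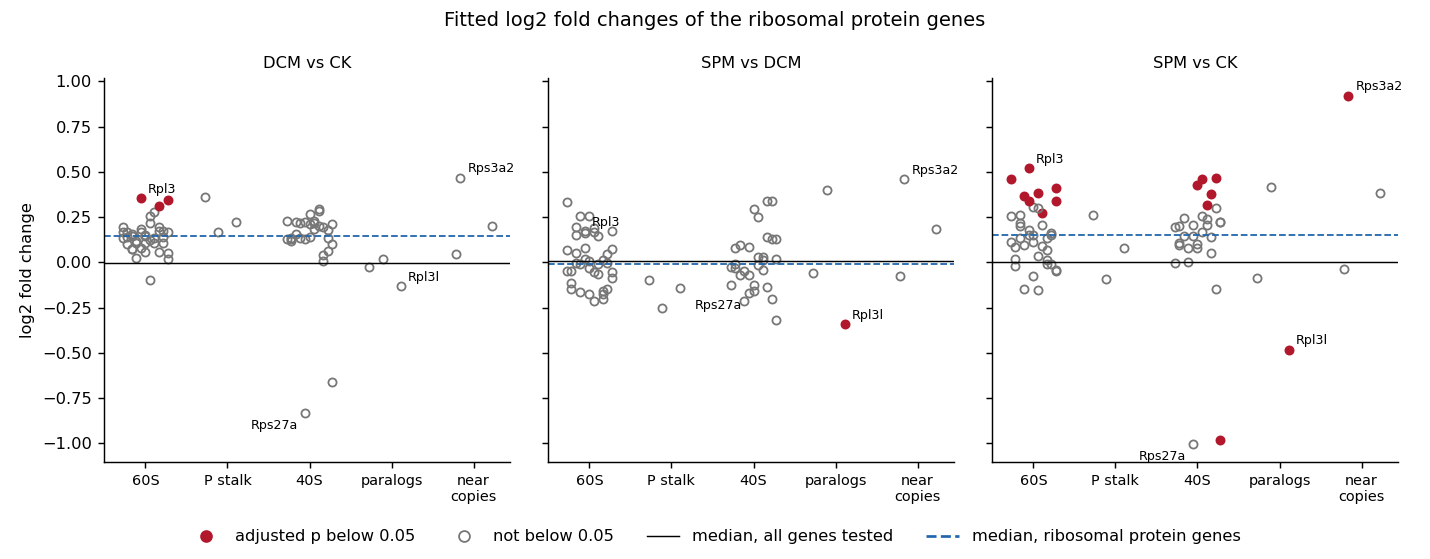
Each point is the fitted log2 fold change of 1 ribosomal protein gene in DCM vs CK, SPM vs DCM or SPM vs CK, by role, with filled points at an adjusted p below 0.05. The solid line is the median of all genes tested and the dashed line the median of the ribosomal protein genes, which was 0.15 in both comparisons with CK and -0.01 in SPM compared to DCM. Rpl3l lay below the other 60S genes in SPM compared to either group.

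In both comparisons with SPM, members with more G and C had smaller fold changes, as had genes in general. Over the 78 genes, Spearman's rho between the GC content of the longest transcript and the log2 fold change was -0.50 in SPM compared to DCM and -0.43 in SPM compared to CK, and 0.06 in DCM compared to CK. Among all genes tested, rho was -0.50, -0.37 and 0.06 in the same order. Rps24 has 43.2% GC and Rpl3l 56.1%, and the median of the set is 50.9%. With a GC trend for each library as an offset, Rpl3l in SPM compared to DCM had a log2 fold change of -0.19 (edgeR adjusted p = 0.102), and in SPM compared to CK it had -0.35 (edgeR adjusted p = 0.00510). Rpl3, with 52.0% GC, had 0.60 in SPM compared to CK in that fit.

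**Figure D4:**
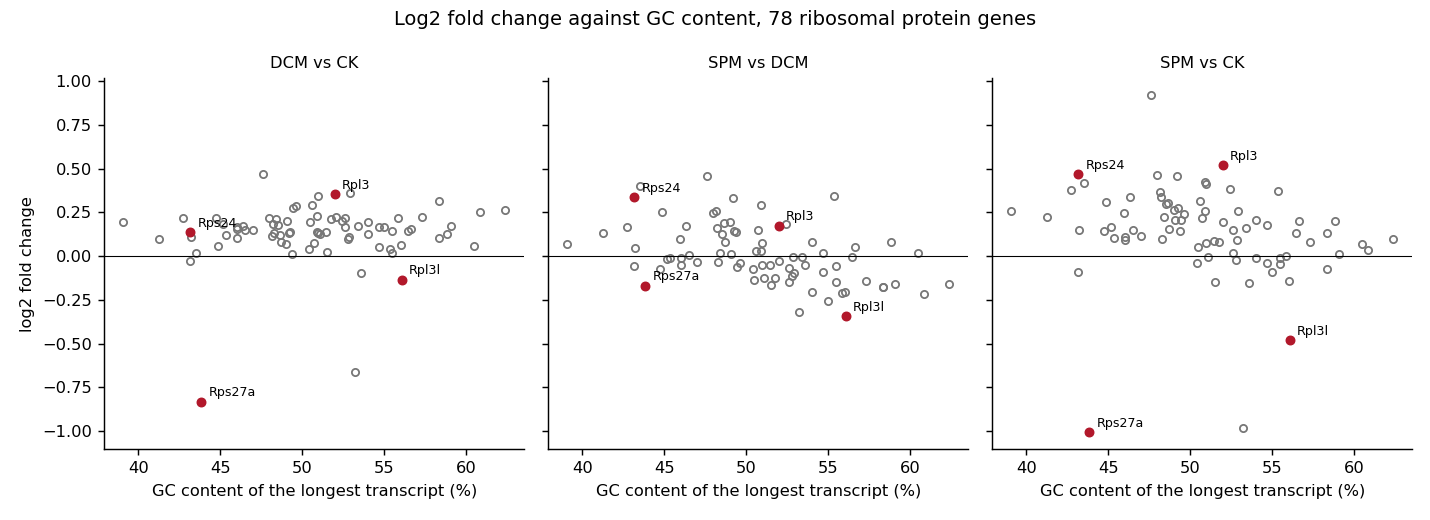
Each point is 1 of the 78 genes, with the GC content of its longest transcript in percent on the x axis and its log2 fold change on the y axis, for the 3 comparisons, with Rpl3, Rpl3l, Rps24 and Rps27a filled and named. Points run down to the right in SPM vs DCM (rho -0.50) and SPM vs CK (rho -0.43) and not in DCM vs CK (rho 0.06).

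The other paralogs were less abundant than their partners in every library. Rpl22l1 had 2.69% to 3.83% of the FPKM of Rpl22, an RNA-binding protein of the large subunit. Rps27l had 0.474 ± 0.032 of the FPKM of Rps27 in CK, 0.456 ± 0.060 in DCM and 0.345 ± 0.020 in SPM (SD, n = 3), and the highest SPM ratio of 0.364 was below the lowest DCM ratio of 0.415. Of this pair, Rps27 rose in SPM compared to CK, with 0.38 ± 0.10 (edgeR adjusted p = 0.0262, and 0.0768 without SPM replicate 2), while Rps27l had -0.09 ± 0.08 (adjusted p = 0.451). Rpl39l, known from testis, had 6, 10 and 0 counts in CK, 6, 8 and 1 in DCM and 0 in every SPM library, which allows up to 3 counts in each, did not pass the filter on low counts and was not tested. Its partner Rpl39 had 55.1 to 80.9 CPM and did not pass the test in any comparison. For Rpl7, Rpl10, Rpl36a and Rps4x, whose paralogs were not analysed here, none of the comparisons passed, with the largest log2 fold change at 0.31 for Rpl7 in SPM compared to CK (edgeR adjusted p = 0.0511).

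Rps27a and Rps3a2 left the common pattern. Rps27a, which encodes ubiquitin fused to a small subunit protein, had 170, 171 and 45.5 CPM in CK, 33.8, 115 and 69.2 in DCM, and 127, 34.4 and 32.5 in SPM. The groups overlapped, and within groups the highest library was up to 3.90 times the lowest. Its SD within groups was 1.04 on the log2 scale, where the median of the 78 genes was 0.151 and the next largest, of Rpl6l, was 0.296. Its log2 fold change was -0.83 ± 0.44 in DCM compared to CK and -1.005 ± 0.60 in SPM compared to CK (edgeR adjusted p = 0.271 and 0.237). Single libraries decided these values, since edgeR's adjusted p was 0.0230 without CK replicate 3 in the first comparison (log2 fold change -1.23) and 0.0235 without SPM replicate 1 in the second (-1.95). The row of its pseudogene Rps27a-ps1 held 0 to 6 counts.

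Rps3a2, a row for a single-exon near copy of Rps3a1, had 2.80, 3.43 and 3.11 CPM in CK, 4.72, 3.79 and 4.40 in DCM, and 7.08, 6.30 and 4.39 in SPM. SPM lay above CK in every library and overlapped DCM, and the log2 fold change in SPM compared to CK was 0.92 ± 0.21 (edgeR adjusted p = 0.0131, and 0.0644 without SPM replicate 2). Its FPKM was 0.601% to 0.978% of that of Rps3a1, which rose as well, and reads of the pair could have been shared between them. Rpl37rt had 13.5% to 18.7% of the FPKM of Rpl37, and the same holds for that pair.

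**Figure D5:**
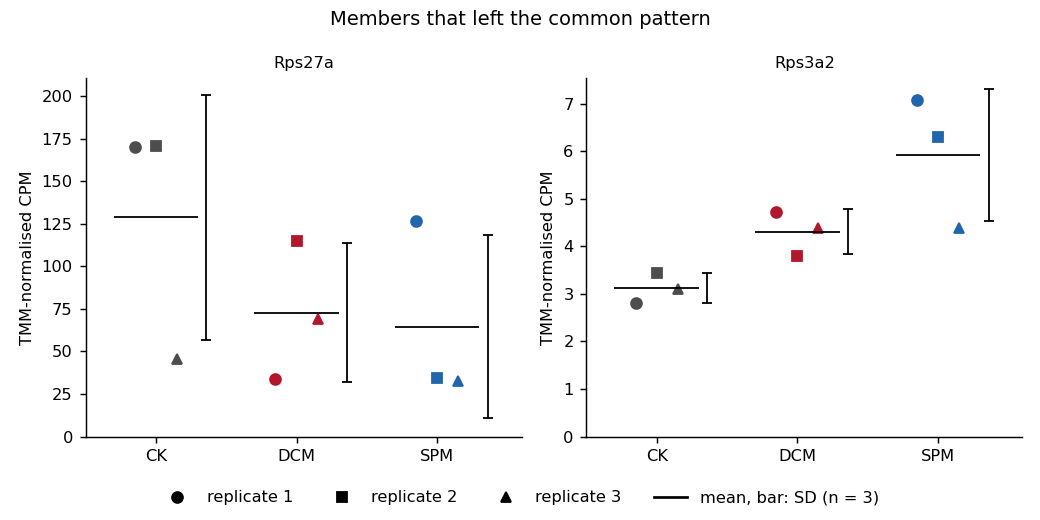
TMM-normalised CPM of Rps27a and Rps3a2 is plotted for each library by group, with lines for means and bars for SDs over 3 libraries. Rps27a ran from 32.5 to 171 CPM with overlap of all groups, and Rps3a2 rose from 2.80 to 3.43 CPM in CK to 4.39 to 7.08 in SPM.

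Genes around the ribosome were read from lists of the pathway. Of 13 other translation genes whose mRNAs carry a TOP tract, none rose or fell in DCM compared to CK at an adjusted p below 0.05. Of all genes, 5.28% rose and 5.11% fell there. At an unadjusted p below 0.05 in edgeR 5 of the 13 were higher and none lower, where 12.0% and 12.6% of all genes were. Their median log2 fold change was 0.15. Of the same genes, 4 rose in SPM compared to CK (Eif3e, Npm1, Naca and Eif4b, with 0.45, 0.43, 0.21 and 0.18) and none fell, where 13.0% of all genes rose and 14.3% fell, and the median was 0.16. Without SPM replicate 2, Eif3e was the 1 that passed, where 5.26% of all genes rose and 5.10% fell. Eef2, the elongation factor that moves the ribosome along the mRNA, had 0.28 in DCM compared to CK (edgeR adjusted p = 0.0577). Of the proteins of the small subunit that the symbol rule leaves out, Rack1 and Fau had 0.21 and 0.08 in DCM compared to CK and 0.07 and -0.09 in SPM compared to CK, and neither passed.

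Of 24 genes of ribosome assembly, none passed in DCM compared to CK, where 5.28% of all genes rose and 5.11% fell. At an unadjusted p below 0.05 in edgeR none was higher and 2 were lower, where 12.0% and 12.6% of all genes were. In SPM compared to CK 2 rose and 5 fell, beside 13.0% and 14.3% of all genes. Gnl3 and Ncl, both proteins of the nucleolus, rose with 0.70 and 0.48, and Nop2, Polr1b, Grwd1, Bop1 and Ubtf fell with -0.45, -0.44, -0.29, -0.26 and -0.24. Polr1b is a subunit of the RNA polymerase that makes ribosomal RNA and Ubtf its activator. Without SPM replicate 2, Gnl3 and Ncl still passed and none of the 5 that fell did, where 5.26% of all genes rose and 5.10% fell. Of 19 genes of mTORC1 and its control, Eif4ebp1, a repressor of translation that mTORC1 inactivates, and Ddit4, an inhibitor of mTORC1, rose in DCM compared to CK with 0.61 and 0.94 (edgeR adjusted p = 0.000477 and 0.00710), and Eif4e, the cap-binding protein, fell with -0.22 (adjusted p = 0.0487), where 5.28% of all genes rose and 5.11% fell. Eif4ebp1 had 160, 143 and 148 CPM in CK, 225, 250 and 213 in DCM and 207, 175 and 155 in SPM, so that DCM was above CK in every library. It fell in SPM compared to DCM, with -0.36 (edgeR adjusted p = 0.0428). Of the 19 genes, 1 rose and 3 fell there, Eif4ebp1 included, where 8.87% and 7.76% of all genes did. None passed there without SPM replicate 2, where 0.357% of all genes rose and 0.128% fell. In SPM compared to CK 3 rose, 2 of them past the fold limit, and 2 fell, beside 13.0% and 14.3% of all genes. Without SPM replicate 2, 2 rose and none fell there, beside 5.26% and 5.10% of all genes. Mtor and Larp1 had -0.24 and -0.12 in SPM compared to DCM and 0.21 and -0.06 in DCM compared to CK, and neither passed.

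The ribosomal proteins of the mitochondrion, which build a separate ribosome for the mitochondrial genome, had medians below 0 in both comparisons with CK. Of 72 tested, 29 were higher and 43 lower in DCM compared to CK, with a median of -0.04. Mrpl3 alone passed there, with -0.33, where 5.28% of all genes rose and 5.11% fell. Their median was -0.16 in SPM compared to CK, and 2 rose and 26 fell at an adjusted p below 0.05, where 13.0% and 14.3% of all genes did. In SPM compared to DCM the median was -0.13, and 4 rose and 18 fell, where 8.87% and 7.76% of all genes did. Without SPM replicate 2, none rose and 8 fell in SPM compared to CK, where 5.26% and 5.10% of all genes did. None rose or fell in SPM compared to DCM in that case, where 0.357% and 0.128% of all genes did. The difference between both kinds of ribosomal protein genes was not tested.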

How the data were processed

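Poly(A) RNA of the myocardium of 3 CK, 3 DCM and 3 SPM mice or pools had been sequenced, and groups were taken from the deposited labels. The authors deposited counts, whole numbers per gene and library, from reads filtered with fastp. The labels' processing notes name Bowtie 0.12.2 and the builds mm8 and mm9, without roles. A counting tool or strand setting was not given in the sources used here. FPKM values, deposited by the authors as well, were found to be each count over a fixed gene length and the total of its library. Symbols, coordinates and GC content came from GENCODE M21 on GRCm38, which named 22820 identifiers, and gene starts from RefSeq.

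The members and lists were chosen with earlier results of these data known. The rule for named genes takes Rpl3 and Rpl3l, the paralogs and their partners, the P stalk, the 5 most abundant members, the 5 largest and 5 smallest fitted changes per comparison, called members and genes of the lists. Rpl8 and Rpl12 fall under it, and 1 member that it takes is counted but not reported here by name. Genes past the adjusted p alone, such as Rpl4, were named after their values were seen.

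Pairs of groups were compared in R 4.3.3 on their 6 libraries with edgeR 4.0.16 (quasi-likelihood test), after filterByExpr and TMM normalization, with Benjamini-Hochberg adjustment over all genes tested. The limits were an adjusted p of 0.05, with and without a fold change of 1.5. SE is the size of the log2 fold change divided by the square root of F. Ratios and shares were compared by two-sided exact permutation tests. Alternatives were DESeq2 1.42.0, RLE factors, a replicate block, a joint fit of all 9 libraries, no low-count filter, a filter of 1 CPM in 3 libraries, limma 3.58.1 on log2(FPKM + 0.1), mitochondrial genes out of the scaling or total, a GC offset (lowess span 0.3), pseudogene counts added, a fold of 1.3, a ratio of CPM with a prior of 0.5, and each library left out in turn. The steps were tested on simulated data, in which 62.2% to 64.3% of changes of 1.5-fold and 69.1% to 76.8% of the larger ones were recovered. Among changed genes with a mean of at least 1000 counts, 98.4% to 100% were recovered. Exact tests and figures were made with scipy 1.17.1 and matplotlib 3.10.9 (Python 3.11.15, pandas 2.3.3).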

Additional observations from a re-analysis of the deposited data

How the results depend on the processing

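The fall of Rpl3l in SPM compared to CK stayed below an adjusted p of 0.05 under all 16 alternatives (1.1e-13 to 0.00933 in edgeR, DESeq2 or limma). The ratio of Rpl3l to Rpl3 kept its sign under all 9 alternatives in each comparison. With groups that did not overlap, leaving out a library or pairing replicates could not have changed that sign. A ratio of CPM differs from that of FPKM by little more than a fixed length factor. Members past the adjusted p in DCM compared to CK numbered 12 in DESeq2, 10 without the low-count filter, 8 with the GC offset, 5 with the replicate block, 1 in limma on FPKM, 0 with all 9 libraries in one fit and 0 to 7 with a library left out. In SPM compared to DCM they numbered 7 with the replicate block, 6 in DESeq2, 0 with the GC offset and 0 to 10 with a library left out, and in SPM compared to CK 5 in limma on FPKM and 3 to 34. Members called with the fold limit numbered 1 in DCM compared to CK without the filter (Rps27a) and in limma on FPKM, 1 in SPM compared to CK without the filter or with the replicate block (Rps3a2), and 10 there with a fold of 1.3. With a library left out they numbered 0 to 1, 0 to 1 and 0 to 4 in DCM compared to CK, SPM compared to DCM and SPM compared to CK. Apart from fits in DESeq2 or without SPM replicate 2, shares of all genes are not given here for these alternatives. The counts therefore show how the calls moved and not how the set compares with other genes. Rpl3 in DCM compared to CK no longer passed the adjusted p with all 9 libraries (0.35) and in limma on FPKM (0.26). Neither did it without CK replicate 2, CK replicate 3 or DCM replicate 1, at 0.29 to 0.42 over the libraries left out. In SPM compared to CK Rpl3 no longer passed without CK replicate 2 or 3 (range 0.39 to 0.64). Rpl3l in SPM compared to DCM no longer passed with the GC offset (-0.19) and without DCM replicate 1, DCM replicate 2 or SPM replicate 2 (range -0.42 to -0.28). The difference in the share of counts changed sign in SPM compared to DCM with mitochondrial genes out of the total (0.125) and with a library left out (-0.214 to 0.139), and in SPM compared to CK as a share of FPKM (-0.0579) and with a library left out (-0.0547 to 0.298). The causes were not tested. Limma on FPKM, which uses no TMM, gave the members a median of 0.05 in both comparisons with CK.

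Over all genes tested, residuals of libraries with the same replicate number correlated at -0.0845 to 0.198 and of others at -0.272 to 0.211. The numbers were therefore not taken as pairs. The median deviation of the ribosomal protein genes was nevertheless highest in replicate 1 and lowest in replicate 3 of each group. Whether replicate number marks a shared factor for these genes was not tested. Depth limits Rpl39l and the near copies.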

Other observations

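Rps10, of the small subunit, was not analysed here under its own name, but the row named Rps10-ps2 held 187, 180 and 167 CPM in CK, 234, 208 and 173 in DCM, and 211, 182 and 154 in SPM, a level like that of canonical members. It was the most abundant of the 101 pseudogene rows that the symbol rule left out, and within groups its libraries stood in the same order as those of most members. All pseudogene rows together held 1.71% to 1.81% of the counts of the members in a library.

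Among 4887 genes with a mean of at least 30 CPM, 3 had a larger SD within groups than Rps27a. They were Alb, the albumin gene of the liver, with an SD of 3.24 on the log2 scale, Bmp10, an atrial growth factor, with 1.09, and Cfd, an adipocyte protease, with 1.05. These were named after their values were seen. Bmp10 had 105, 93.5 and 15.5 CPM in CK replicates 1 to 3, 10.6, 44.5 and 27.9 in DCM, and 44.9, 36.5 and 30.1 in SPM. Alb had 2.39, 28.2 and 1.07 CPM in CK, 0.352, 0.305 and 0.264 in DCM, and 247, 113 and 0.293 in SPM. Rps27a had 170, 171 and 45.5 CPM in CK, 33.8, 115 and 69.2 in DCM, and 127, 34.4 and 32.5 in SPM. Whether these genes vary together was not tested. Mtif2, the gene beside Rps27a, had an SD of 0.203.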
